A study of Mus musculus with 38 samples.

Results

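Of 232068 base-unpairing regions (BURs) on mouse chromosomes 1-19 and X, 2138 (0.921%) had at least 1 base within 1 kb of the 5' end of a protein-coding gene, and the remaining 229930 lay farther away. These start-site BURs were taken from the list of 238380 regions bound in vitro by SATB1, with distances measured to the 22350 protein-coding genes of GENCODE vM1 on the mm9 build. Each BUR was assigned to the gene with the nearest 5' end. The 2138 regions belonged to 1976 genes (8.84% of all protein-coding genes), of which 158 had more than 1. A BUR was called occupied in a ChIP-seq list when a peak of that list shared at least 1 bp with it.

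BURs are short AT-rich stretches of DNA that unpair readily under superhelical strain, and they are built of clustered segments in which 1 strand lacks either G or C. SATB1 is a nuclear protein abundant in thymocytes that binds such DNA directly, in the minor groove of the double helix. Gene start sites in mammals are, in contrast, often rich in GC and open to transcription factors, and CTCF, a zinc finger protein that holds chromatin loops, binds at many of them. The comparison asked whether BURs that lie at gene starts were bound in vivo as often as BURs elsewhere.

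The study profiled SATB1 in Satb1 wild-type C57BL/6 mice by urea ChIP-seq, in which crosslinked DNA is freed from indirectly attached protein by urea ultracentrifugation before it is fragmented, and by standard ChIP-seq. Urea SATB1 lists, all made with the home-made 1583D antibody, came from thymocytes, brain (cortex, where only neurons express SATB1 according to the labels) and skin (primary epidermal keratinocytes), with 2 lists each. Standard SATB1 lists came from thymocytes, the first with ab109122 and the second with 1583D. CTCF urea lists came from thymocytes and skin, 1 list each, and the BUR list is a single map of recombinant SATB1 bound to sonicated, purified thymocyte DNA. The labels give the thymocyte and skin samples as postnatal day 13 and the brain samples as 5 and 6 weeks, but 2 thymocyte titles (CTCF and the first standard list) read 6 weeks and the protocols give other ages for brain and skin, so ages are not used here. The 2 lists of each urea SATB1 pair carry the same preparation number, with different letters in thymocytes and skin and no letter in brain. The brain lists differ in cycles (10 and 12), the thymocyte urea lists in volume (4 and 2 ul) and the skin lists in seconds (55 and 60). The study describes its replicates in general as cells of different animals, but the shared numbers leave unclear whether that holds for these pairs. Every p-value below measures the spread between lists, which may be partly technical. The lists held 10846 to 117963 peaks, with the fewest in skin and the most in brain, and they do not hold the reads behind them. By the study's account the urea libraries had similar totals of aligned reads.

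Sequences of 5 start-site BURs are shown because they stand for the occupancy patterns described below. The BUR of Lce1d (chr3:92491518-92491817) was bound in all 6 urea SATB1 lists, that of Tpst1 (chr5:130548599-130548898) in thymocytes and brain, and that of Gm10222 (chr1:24619540-24619839) by urea SATB1 in brain alone. That of Trpm8 (chr1:90175310-90175609) was in no ChIP list, and that of Cyp2w1 (chr5:139828917-139829216) had the highest in vitro enrichment of the start-site BURs. Each is 300 bases of the plus strand of mm9 near the in vitro summit, outside the exons of protein-coding genes. Capitals mark the longest run without C, or in Gm10222 without G.
Lce1d: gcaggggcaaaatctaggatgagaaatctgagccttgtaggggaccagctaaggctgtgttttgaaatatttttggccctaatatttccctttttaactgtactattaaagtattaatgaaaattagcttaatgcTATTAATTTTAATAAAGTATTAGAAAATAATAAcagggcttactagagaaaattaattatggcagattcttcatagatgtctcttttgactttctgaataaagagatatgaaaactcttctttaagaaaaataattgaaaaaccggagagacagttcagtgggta
Tpst1: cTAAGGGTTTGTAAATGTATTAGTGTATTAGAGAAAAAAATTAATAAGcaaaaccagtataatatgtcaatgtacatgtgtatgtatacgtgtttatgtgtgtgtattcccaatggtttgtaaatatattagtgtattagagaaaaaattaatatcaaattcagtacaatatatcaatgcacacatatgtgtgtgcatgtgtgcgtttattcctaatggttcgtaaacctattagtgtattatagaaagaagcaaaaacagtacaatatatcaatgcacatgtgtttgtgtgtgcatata
Gm10222: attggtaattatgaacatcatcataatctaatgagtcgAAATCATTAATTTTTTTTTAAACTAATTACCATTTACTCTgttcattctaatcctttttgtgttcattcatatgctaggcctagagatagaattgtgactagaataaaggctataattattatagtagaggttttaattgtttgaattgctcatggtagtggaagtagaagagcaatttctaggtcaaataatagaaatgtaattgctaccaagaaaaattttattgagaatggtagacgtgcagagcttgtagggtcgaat
Trpm8: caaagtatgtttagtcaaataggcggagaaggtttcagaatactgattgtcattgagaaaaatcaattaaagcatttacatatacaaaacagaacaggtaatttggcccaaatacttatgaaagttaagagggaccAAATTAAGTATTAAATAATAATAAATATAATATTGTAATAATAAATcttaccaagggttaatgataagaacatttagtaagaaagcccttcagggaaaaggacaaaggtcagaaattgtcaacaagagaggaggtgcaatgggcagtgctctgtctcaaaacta
Cyp2w1: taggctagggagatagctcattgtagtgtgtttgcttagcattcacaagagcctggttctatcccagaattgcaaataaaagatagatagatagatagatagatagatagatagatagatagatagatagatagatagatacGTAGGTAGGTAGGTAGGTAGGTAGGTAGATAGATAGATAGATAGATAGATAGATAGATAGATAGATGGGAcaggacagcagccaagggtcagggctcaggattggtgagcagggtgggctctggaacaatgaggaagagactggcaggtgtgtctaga
The marked runs were 33, 47, 40, 46 and 70 bases long in this order. The first 4 BURs were 65.8%, 69.4%, 67.8% and 66.1% AT over their whole length. The BUR of Cyp2w1 was only 51.4% AT and held 60 bases of tandem repeat of the 4-base unit AGAT, a sequence type that recurs below.

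BURs were rare over gene starts and common just beside those of chemosensory receptor genes. A position was inside a BUR at 0.568% of all 5' ends, against 2.76% of positions 10 to 20 kb upstream. Among the 1497 genes for olfactory, vomeronasal, trace amine and taste receptors, which are members of large clustered families, 18.2% had a BUR over the position 500 bp upstream and 4.07% over the 5' end itself. Among the other 20853 genes the shares were 1.70% and 0.317%. The plot of BUR coverage around 5' ends shows both curves dipping around the start of the gene. The receptor curve was lowest 200 bp downstream of it (1.14%).

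**Figure D1:**
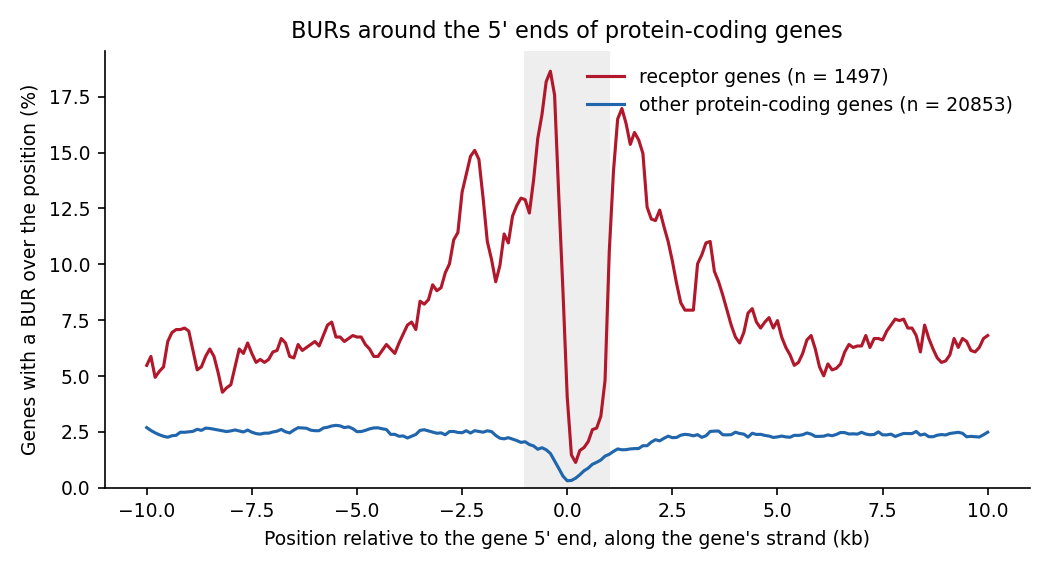
Share of genes (y axis, %) with a BUR over each position around the gene 5' end (x axis, kb along the gene's strand), for 1497 receptor genes and 20853 other protein-coding genes. Both curves fall towards the 5' end, with 4.07% and 0.317% at that position, and the receptor curve is lowest at 200 bp downstream (1.14%). The receptor genes reach 18.2% at 500 bp upstream. The grey band spans 1 kb on either side.

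In all, 43.4% of receptor genes had a start-site BUR, against 6.36% of other genes. Receptor genes therefore supplied 737 of the 2138 regions. By chromosome, the most regions lay on chromosomes 7 (327) and 2 (297), which hold large receptor clusters, and the fewest on chromosome 18 (42). Most start-site BURs (1304, 61%) lay wholly upstream of the 5' end, 708 lay downstream and 126 covered it. An exon was touched by 398 (18.6%, against 3.25% of BURs farther away), and the other 1740 lay in introns or between genes. For 32.2% of the regions the annotated gene began at its first coding base, so that its true start may lie farther upstream; this held for 11.9% of all genes and for 57.2% of olfactory receptor genes.

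In sequence and in vitro binding, start-site BURs resembled other BURs. Their median length was 454 bp against 439 bp farther away, and the median in vitro fold enrichment was 6.20 against 5.87. Median AT content was 70.1% and 70.7%, but fewer start-site BURs reached 65% AT (73.9% against 83.3%). A run of 25 bases or more without G or without C was present in 98.7% and 97.8%. BURs just inside the limit (901 to 1000 bp, n = 309) and just outside it (1001 to 1100 bp, n = 280) were occupied at 37.9% and 35.0% in the first brain list and 35.0% and 32.9% in the second. In thymocytes the urea lists gave 12.6% inside and 16.8% outside, and 10.4% and 16.1%. In skin they gave 3.56% and 5.71%, and 3.56% and 5.36%. Thymocytes and skin were thus lower just inside the limit and brain was not, while the standard lists gave 1.29% and 0.324% inside and 1.07% and 0.357% outside.

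Urea SATB1 occupied start-site BURs about as often as other BURs. In thymocytes, 304 of the 2138 regions (14.2%) had a peak of the first urea list and 289 (13.5%) of the second, where 14.6% and 12.9% of all BURs did. In brain, 750 (35.1%) and 680 (31.8%) were occupied, against 37.2% and 34.2% of all BURs. In skin, 90 (4.21%) and 95 (4.44%) were occupied, against 3.71% and 3.64%. Set against BURs farther away, both brain lists were lower near genes and both skin lists were higher, while the thymocyte lists fell on either side. The skin excess rested on the 12 members in regions common to all lists. Without them the first skin list held 78 of 2126 (3.67%, against 3.69% farther away) and the second 83 (3.90%, against 3.61%). Over the 6 lists, the log2 ratio of the near to the far share averaged 0.05 ± 0.16 (SD, n = 6), a ratio of 1.04, and did not differ from 0 (exact two-sided sign-flip permutation test over lists, p = 0.5; Benjamini-Hochberg adjusted p = 0.5 over 7 tests). The direction of this small value was not stable. It was -0.03 without those 12 members, and was 0.18 without BURs that hold a tandem repeat (exact p = 0.03125).

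Standard SATB1 and CTCF showed a different picture, with several times more peaks on start-site BURs than on BURs farther away. The standard SATB1 lists had peaks on 129 (6.03%) and 84 (3.93%) of the 2138 regions, against 0.649% and 0.521% of all BURs, which was 10.1 and 8.02 times the share farther away. CTCF was on 29 (1.36%) in thymocytes and 48 (2.25%) in skin, against 0.221% and 0.522% of all BURs, or 6.43 and 4.44 times the share farther away. Without the members in common regions, thymocyte CTCF was on 17 (0.80%, against 0.193% farther away) and skin CTCF on 36 (1.69%, against 0.488%). All 4 lists were higher near genes, with a mean log2 ratio of 2.79 ± 0.50 (SD, n = 4), although 4 lists cannot give an exact p below 0.125. At the 737 start-site BURs of receptor genes this excess was small or absent. Standard SATB1 was on 0.407% and 0.543% of them, against 0.325% and 0.369% of BURs farther away whose nearest gene was a receptor gene. Thymocyte CTCF was on none, against 0.162%, and skin CTCF on 0.136%, against 0.428%. At the other 1401 start-site BURs the standard shares were 8.99% and 5.71%, against 0.608% and 0.493% farther away. The near-to-far ratios of the 6 urea SATB1 lists (log2 -0.11 to 0.29) and of the 4 other lists (2.15 to 3.33) did not overlap. Their means differed by -2.74 on the log2 scale (exact permutation test over 210 splits of the lists, p = 0.00476, the smallest possible; adjusted p = 0.0333), and the difference kept its sign and its p under all 20 alternatives that kept the 10 lists. This test takes the 10 lists as separate units, although the urea SATB1 lists are pairs that may share a preparation. It was not repeated with the replicates averaged per tissue. The plot of near and far shares shows paired points almost touching for urea SATB1 and far apart for the others.

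**Figure D2:**
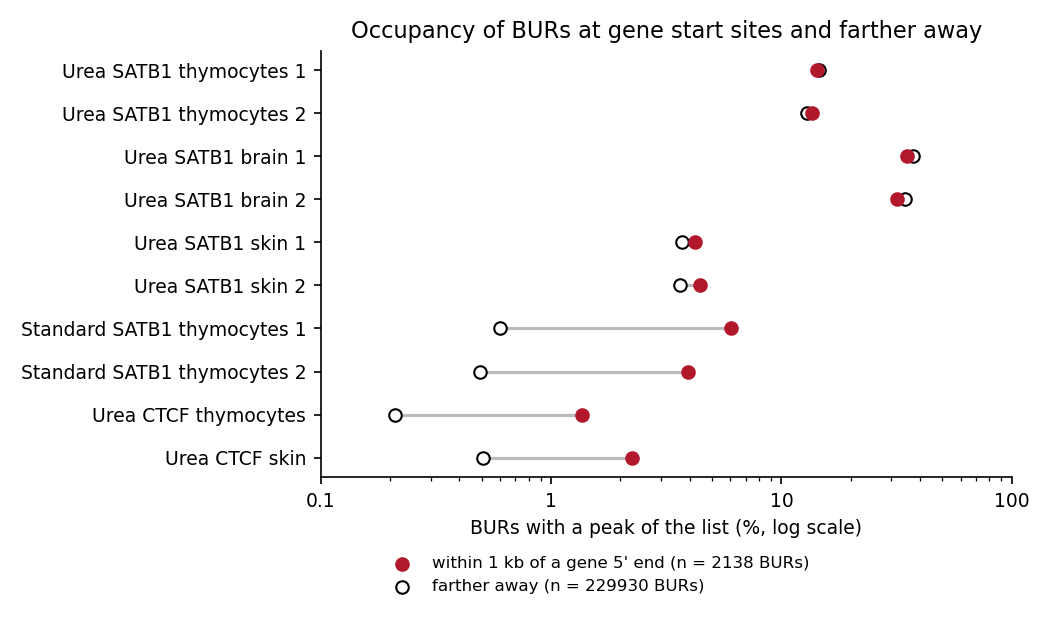
Share of BURs with a peak of each of the 10 ChIP lists (x axis, %, log scale), for 2138 start-site BURs (filled) and 229930 BURs farther away (open), 1 value per list. For urea SATB1 the pairs differ little (14.2% and 14.6% in the first thymocyte list), whereas all 4 standard SATB1 and CTCF lists lie far to the right near genes (6.03% and 0.599% in the first standard list).

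The ChIP peaks themselves were placed in the same way. Of standard SATB1 peaks, 25.4% and 32.8% lay within 1 kb of a gene 5' end. Of those, 1.24% and 0.964% were on a BUR, against 3.50% and 4.68% of all peaks of these lists. Of urea SATB1 peaks, 0.884% to 1.3% lay within 1 kb of a 5' end. Of those, 62.9% to 70.9% were on a BUR, against 72.8% to 79.6% of all urea SATB1 peaks. In every SATB1 list the share on a BUR was thus lower near 5' ends than over all peaks.

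Occupancy by distance ran differently in the tissues. In brain it was lowest at 2 to 5 kb from a gene (30.6% and 28.3%) and reached 42.8% and 39.3% beyond 500 kb. In skin it was 4.37% and 4.42% at 2 to 5 kb and 3.22% and 3.14% beyond 500 kb, the opposite order. Standard SATB1 was on 17.5% and 13.5% of BURs that cover a 5' end, on 1.15% and 0.850% at 2 to 5 kb and on 0.0951% and 0.147% beyond 500 kb.

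**Figure D3:**
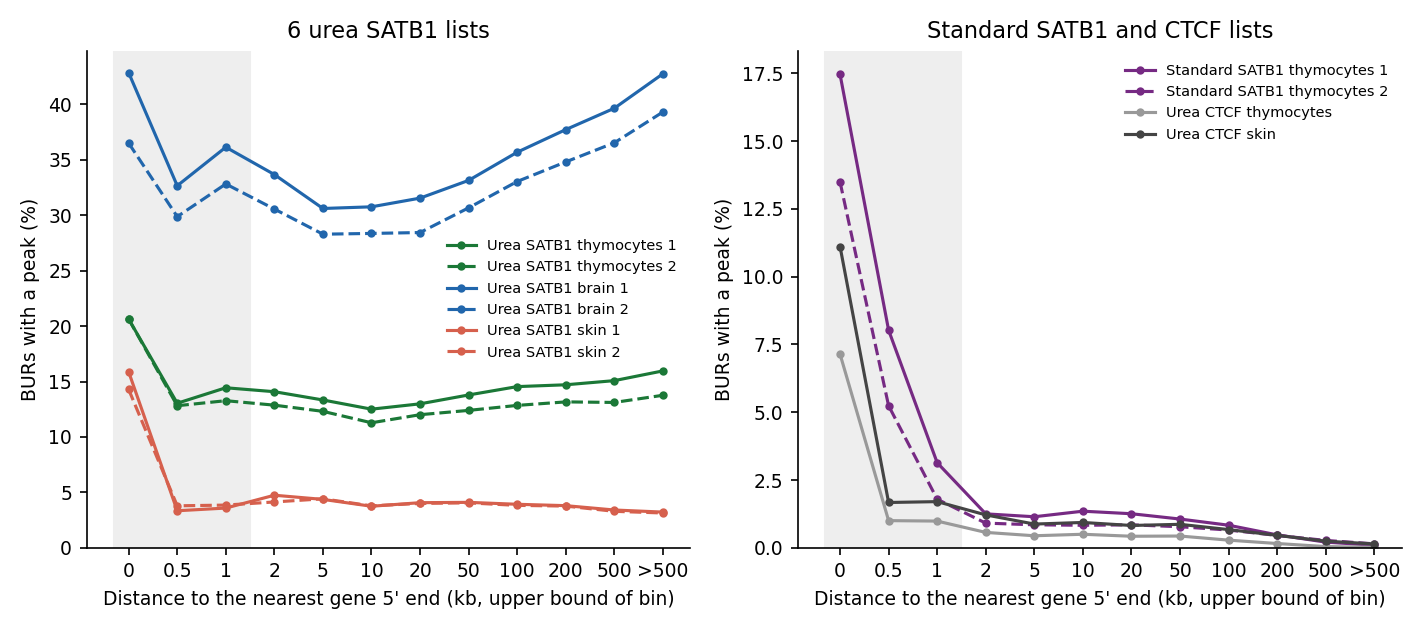
Share of BURs with a peak (y axis, %) by distance to the nearest gene 5' end (x axis, bins named by their upper bound in kb, 0 for BURs that cover it), 1 line per list, with start-site BURs in the grey band. Brain occupancy rises from 30.6% at 2 to 5 kb to 42.8% beyond 500 kb in the first list, and the 4 lists in the right panel fall steeply away from the 5' end.

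Between tissues, the mean log2 near-to-far ratio was 0.01 ± 0.07 in thymocytes, -0.10 ± 0.02 in brain and 0.24 ± 0.08 in skin (SD, n = 2 each). The between-tissue spread gave an exact permutation p of 0.0667, the smallest that 6 lists in 3 pairs allow (adjusted p = 0.117), so the design could not pass 0.05. The skin-minus-brain difference of 0.33 became 0.16 without common regions (p = 0.267 in the exact permutation test) and -0.08 when only BURs 1 to 10 kb away were used as the comparison.

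By pattern, start-site BURs followed the whole list closely. Both lists of a tissue held 244 regions in thymocytes (11.4%, against 11.3% of all BURs), 635 in brain (29.7%, against 31.4%) and 82 in skin (3.84%, against 3.12%). At least 1 urea SATB1 list held 809 (37.8%, against 40.6%), and no urea SATB1 list held 1329 (62.2%, against 59.4%). All 6 held 70 (3.27%, against 2.86%), or 58 without regions common to all lists. A further 151 (7.06%, against 7.23%) were in both thymocyte and both brain lists and in no skin list, and 306 (14.3%, against 16.1%) were in both brain lists alone among the urea lists. None was in both thymocyte lists without a brain list (0.0668% of all BURs), and 8 were in both skin lists without a brain list (0.374%, against 0.161%). These counts changed when the lists were cut to equal length, and the cause of the patterns was not tested. With the same number of strongest peaks from every list, 34 regions were in all 6, 27 in brain alone and 38 in skin without brain.

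Start-site BURs bound in every tissue were led by Lce1d, a late cornified envelope gene of the epidermis. Its BUR, 258 bp upstream (chr3:92491390-92491919), had fold enrichments of 33.2 and 32.6 in thymocytes, 24.5 and 24.5 in brain and 25.1 and 23.1 in skin, and no peak of the other 4 lists. Next came the BUR 206 bp upstream of the olfactory receptor gene Olfr1261 (chr2:89830704-89831189), with 30.9 and 32.3 in thymocytes, 22.0 and 24.2 in brain and 23.7 and 23.3 in skin. In both, thymocytes had the highest values, and the values of a pair of lists lay close together. A fold enrichment compares the summit with the local background of its own sample, so values of different tissues are not on a common scale.

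The other 6 of the 8 highest were near Gm6899, Krtap16-2, Chpf2, Nusap1, Olfr58 and Slc6a2. Krtap16-2 encodes a keratin-associated protein of hair, Chpf2 an enzyme of chondroitin synthesis, Nusap1 a microtubule protein of the mitotic spindle and Slc6a2 the noradrenaline transporter of neurons. The BURs of Gm6899 and Nusap1 lay in introns of neighbouring genes, Vrk2 and Oip5, and that of Olfr58 overlapped its exon. Mean fold enrichment over the 6 lists ran from 24.6 ± 4.7 (SD, n = 6) at Gm6899 to 21.0 ± 4.6 at Slc6a2, where thymocytes (23.7 and 25.3) and skin (23.6 and 22.9) exceeded brain (13.8 and 16.6). Among all 8, a standard SATB1 peak was present only at Nusap1, in the second list (4.13).

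BURs bound in thymocytes and brain but not in skin were led by Tpst1, a sulfotransferase gene. Its BUR 250 bp upstream (chr5:130548552-130548946) had 19.5 and 16.0 in thymocytes and 24.4 and 24.1 in brain. Near Mtor, the gene for the growth-regulating kinase mTOR, the BUR 930 bp upstream (chr4:147821253-147821790) had 14.8 and 15.3 in thymocytes and 21.6 and 21.7 in brain. Brain values exceeded thymocyte values at both, the reverse of the order at the 8 highest BURs bound in all urea lists. These values are not on a common scale between tissues, and other BURs bound in all urea lists need not follow that order. The other 2 of the 4 highest were upstream of Gm10036 and of Spink14, a protease inhibitor gene.

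Brain-only BURs were led by Gm10222, with 19.8 and 19.9, but this region shared 89.4% of its 30-base words with the mitochondrial genome. Standard SATB1 (4.27, first list) and skin CTCF (2.81) also had a peak there. Dync1i2, for an intermediate chain of the motor protein dynein, had 18.1 and 19.2 at a BUR 631 bp upstream (chr2:71048594-71049132). Ifna11, an interferon gene, had 17.4 and 18.2 at a BUR 645 bp downstream, and Cd200r2, for a receptor of myeloid cells, had 17.2 in both lists at a BUR in its intron.

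Of the 8 skin BURs without a brain peak, those named were 2 of Gm10925 and 1 each of Vmn1r112 and Gm10721. Both Gm10925 regions shared 100% of their 30-base words with the mitochondrial genome, and had 16.5 and 16.5 (78 bp downstream) and 5.62 and 6.13 (496 bp upstream). The BUR of Gm10721 had 3.61 and 3.58, with peaks of both standard lists and of skin CTCF. It lay on chromosome 9 among regions where all 11 lists had a peak. Of those named, only Vmn1r112, a vomeronasal receptor gene, combined higher values (14 and 13.9) with no mitochondrial likeness and no other peak.

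**Figure D4:**
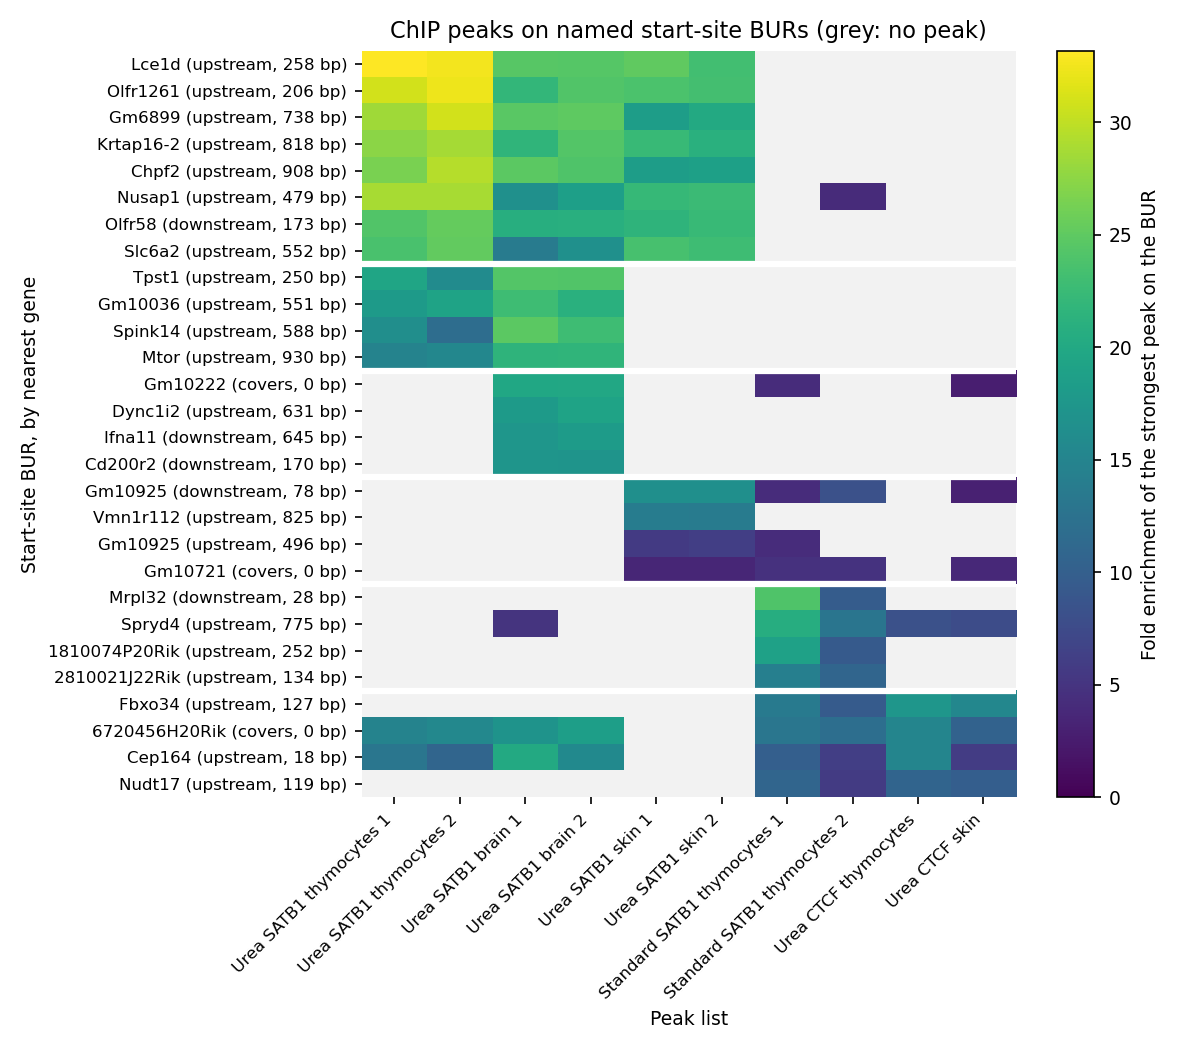
Fold enrichment (colour) of the strongest peak of each of the 10 ChIP lists (columns) on 28 named start-site BURs (rows, with side and distance), grey where a list has no peak. From the top, blocks hold BURs bound in all urea SATB1 lists, in thymocytes and brain, in brain, in skin, by standard SATB1 and by CTCF. The top 8 rows run from 13.8 to 33.2 over the 6 urea lists and hold only 1 standard SATB1 value, 4.13.

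Standard SATB1 and thymocyte urea SATB1 shared a minority of their start-site BURs. Both standard lists held 74 of the 2138 regions (3.46%, against 0.246% of all BURs), and either held 139 (6.50%, against 0.925%). Of the 74, both thymocyte urea lists held 17 (0.795% of the 2138, against 0.0569% of all BURs), of which 5 were outside regions common to all lists. Without those common regions, 62 remained, of which each thymocyte urea list held 6 (9.68%). Of the 1999 regions with no standard SATB1 peak, the thymocyte urea lists held 14% and 13.2%, and the difference was not tested.

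Among BURs in both standard lists and outside common regions, mean standard SATB1 fold enrichment was highest near Mrpl32, a mitochondrial ribosomal protein gene (24.1 and 9.71). This BUR lay 28 bp downstream of the gene start and overlapped the exon. Mrpl32 was followed by Spryd4 (20.7 and 12.9), 1810074P20Rik (18.9 and 9.35) and 2810021J22Rik (14.3 and 10.9). None of these 4 had a thymocyte urea SATB1 peak, and only Spryd4 had any urea SATB1 peak (4.98, first brain list). Spryd4 also had CTCF peaks in thymocytes (8.27) and skin (7.70). The first standard list, made with the other antibody, was higher at all 4. With the summit required inside the BUR, 1810074P20Rik and 2810021J22Rik had 0 lists left, and with 50% of the BUR covered by a peak, Mrpl32 and 1810074P20Rik had 0.

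CTCF occupied 26 start-site BURs in both lists (1.22%, against 0.182% of all BURs), and 14 of them lay outside common regions. Of these 14, standard SATB1 was on 11 and 10 (78.6% and 71.4%, against 5.50% and 3.39% of all start-site BURs outside common regions). Thymocyte urea SATB1 was on 7 and 5 (50.0% and 35.7%, against 13.7% and 13.0%). The highest was Fbxo34, an F-box protein gene, with 17.5 and 15.4, followed by 6720456H20Rik (15.1 and 10.4), Cep164 (15.0 and 5.89), which encodes a protein of the centriole that builds cilia, and Nudt17 (10.7 and 9.96). The BURs of 6720456H20Rik and Cep164 were bound by urea SATB1 too, at 14.9 and 15.5 and at 13.0 and 10.9 in thymocytes, while those of Fbxo34 and Nudt17 were not. The peaks at Fbxo34 and Nudt17 had their summits outside the BUR, and with the summit required inside it both had 0 lists left.

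No ChIP list held 1224 start-site BURs (57.2%, against 58.6% of all BURs), and strong binding in vitro was no guarantee of a peak. The BUR with the highest in vitro enrichment, 27.7 in an intron of the cytochrome P450 gene Cyp2w1 (chr5:139828791-139829333), had only a standard SATB1 peak (7.99, second list). Trpm8, the gene of the cold-sensing channel, came second with 23.9 at a BUR 925 bp downstream, and had none. Tmem192 (21.6), 9130404H23Rik (21.4) and Stard13 (21.3) had none either. Mtor, with 23.6, was bound in thymocytes and brain as given above.

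Grouped by in vitro enrichment over all BURs, the weakest quintile of start-site BURs (1.39 to 3.98, n = 403) was occupied at 22.3% in the first brain list and the strongest (9.70 to 35.3, n = 471) at 39.1%. Farther away, these shares were 21.0% and 48.0%, so the strongest start-site BURs were occupied less than their distant counterparts. The first thymocyte urea list gave 18.9% near and 26.8% far in the strongest quintile. In skin the weakest quintile was occupied at 5.71% near against 0.676% far in the first list, and at 3.55% (14 of 394) against 0.661% without common regions. The members left in still held sequence present in many copies. They included the BUR of Gm10721, which lies among the common regions of chromosome 9, and that of Gm10925 at 496 bp upstream, with mitochondrial sequence.

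Start-site BURs with and without tandem repeats differed in which method found SATB1 on them. A perfect repeat of a unit of 1 to 6 bases over at least 24 bases was present in 583 start-site BURs (27.3%, against 22.6% farther away). The commonest units, counted on both strands, were AAAT (215 regions), AGAT (163) and AAT (102). Start-site BURs with a repeat were occupied at 3.26% and 4.97% in thymocytes, 8.58% and 6.69% in brain and 1.20% and 1.37% in skin. Those without a repeat were occupied at 18.3% and 16.7%, 45.0% and 41.2%, and 5.34% and 5.59%, so all 6 urea SATB1 lists were lower with a repeat. BURs farther away showed the same order in all 6.

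Both standard lists went the other way, with 14.1% and 8.58% of start-site BURs with a repeat and 3.02% and 2.19% of those without. BURs farther away showed this order too, with 1.78% and 1.38% of those with a repeat and 0.257% and 0.229% of those without. For CTCF the shares with and without a repeat were 1.37% and 1.35% in thymocytes and 2.23% and 2.25% in skin. Without common regions they were 1.20% and 0.648%, and 2.06% and 1.55%, and farther away CTCF was also the more frequent with a repeat (0.387% and 0.160%, and 0.779% and 0.426%). Of the 62 regions in both standard lists outside common regions, 44 (71.0%) held a repeat, against 5 of the 58 bound in all urea lists (8.62%). All 4 BURs named for standard SATB1 held a repeat, of 40 to 54 bases, and so did Cyp2w1, whose printed sequence shows AGAT units. This split was seen in the data before it was described and has no test here.

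**Figure D5:**
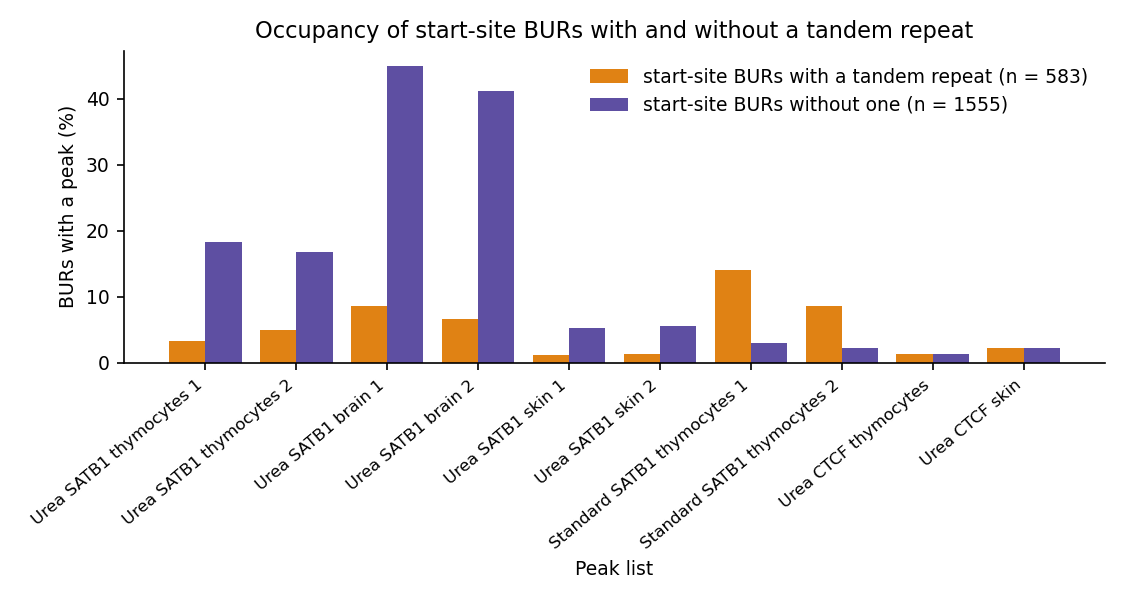
Share of start-site BURs with a peak (y axis, %) in each of the 10 ChIP lists (x axis), for 583 regions with a tandem repeat of at least 24 bases and 1555 without. Urea SATB1 bars are lower with a repeat in every list (8.58% and 45.0% in the first brain list), and standard SATB1 bars are higher (14.1% and 3.02% in the first).

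By position, urea SATB1 was least frequent upstream. BURs wholly upstream were occupied at 13.3% and 12.0% in thymocytes, 32.1% and 29.1% in brain and 2.76% and 3.07% in skin. BURs wholly downstream were occupied at 14.7% and 15.1%, 39.1% and 35.9%, and 4.80% and 5.23%. Upstream was lower in all 6 lists, with a mean log2 ratio of -0.44 ± 0.28 (SD, n = 6; exact sign-flip p = 0.03125, the smallest possible; adjusted p = 0.0729), which fails the correction. Without gene models that begin at their first coding base the value was -0.08 (p = 0.344 in the exact permutation test), and without receptor genes -0.32 (p = 0.0625 in the exact permutation test).

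BURs that cover the 5' end were occupied more often than the other start-site BURs in every list. Of these 126, 26 (20.6%) had a peak in each thymocyte urea list, 54 (42.9%) and 46 (36.5%) in brain and 20 (15.9%) and 18 (14.3%) in skin. The other 2012 start-site BURs were occupied at 13.8% and 13.1%, 34.6% and 31.5%, and 3.48% and 3.83%. The mean log2 ratio was 0.97 ± 0.85 (SD, n = 6; exact sign-flip p = 0.03125; adjusted p = 0.0729), which fails the correction, and the skin lists had the highest values. The covering BURs were also longer (median 508 bp against 448 bp upstream and 457 bp downstream), and 6 of them lay in regions common to all lists. Their median in vitro -log10 q was higher (50.8 against 28.4 upstream and 31.3 downstream). Their median in vitro fold enrichment differed little (6.37 against 6.05 and 6.34). Weighted by length the log2 ratio was 0.76 (p = 0.0625 in the exact permutation test), and weighted by in vitro -log10 q 0.62 (p = 0.03125 in the exact permutation test). Without models that begin at a coding base it was 0.45 (p = 0.0625 in the exact permutation test).

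Peak strength did not set start-site BURs apart. The median fold enrichment of occupied start-site BURs was 9.40 and 8.58 in thymocytes, 8.44 and 8.31 in brain and 7.23 and 7.16 in skin. Farther away it was 8.38 and 8.56, 8.24 and 8.40, and 8.62 and 8.39. Skin was lower near genes in both lists, and the mean log2 ratio over the 6 lists was -0.05 ± 0.16 (SD, n = 6; exact sign-flip p = 0.4375; adjusted p = 0.5).

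Among gene families, receptors for smell had by far the most start-site BURs. Of 1113 olfactory receptor genes, 467 (42.0%) had at least 1, against 8.84% of all genes, and their 539 regions were occupied at 49.5% and 45.1% in brain, 18.6% and 15.6% in thymocytes and 4.64% in both skin lists. Vomeronasal, trace amine and taste receptor genes had nearly the same share (183 of 384, 47.7%), but their 198 regions were occupied at 26.3% and 23.2% in brain and 9.09% and 7.58% in thymocytes. The olfactory group was thus above, and the vomeronasal group below, the 35.1% and 31.8% of all start-site BURs in brain. In both groups standard SATB1 was on no more than 3 regions a list, and thymocyte CTCF on none. Killer cell lectin-like receptor genes, which serve natural killer cells, also clustered high (13 of 28, 46.4%). In brain, 5 and 4 of their 14 regions were occupied (35.7% and 28.6%), close to the shares of all start-site BURs. Each other urea list held 1 (7.14%, against 14.2% and 13.5% in thymocytes and 4.21% and 4.44% in skin).

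Within the receptor families, brain occupied 43.3% and 39.2% of the 737 start-site BURs and 33.8% and 30.9% of the 6776 BURs farther away whose nearest gene was a receptor gene. At the other 1401 start-site BURs the order was the opposite, with 30.8% and 27.9% near and 37.3% and 34.4% far. Both directions held in both brain lists, and the difference between them was not tested.

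Genes of the epidermis had start-site BURs more often than all genes, and few regions in all. Keratins and keratin-associated proteins had them at 19 of 100 genes (19%), with 8 of 20 regions occupied in each brain list (40.0%, against 35.1% and 31.8% of all start-site BURs) and 2 in each skin list (10.0%, against 4.21% and 4.44%). Beside Krtap16-2, they were led by Krt19, a keratin of simple epithelia, with 18.4 and 13.9 in brain and 11.6 and 10.4 in thymocytes, and by Krtap16-4 (14.1 and 14.8) and Krtap3-3 (12.1 and 9.95) in brain. Cornified envelope genes had them at 9 of 41 genes (22.0%), with 5 and 4 of 9 regions occupied in brain and 1 in each skin list, that of Lce1d. There Sprr2d (17.2 and 15.8), Flg2 (16.1 and 15.1) and Sprr2e (10.2 and 15.3), which encode proteins of the outer epidermal barrier, had peaks in brain and none in skin. Flg2 also had them in thymocytes (8.38 and 7.54), and Sprr2d in the first thymocyte list (4.32). With equal numbers of strongest peaks from every list, Sprr2d kept a peak in 1 list, and Flg2 and Sprr2e in 0. None of 29 genes for epidermal adhesion and transcription factors had a start-site BUR.

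Of neuronal lists, neurotransmitter receptors had start-site BURs at 5 of 100 genes (5.00%), ion channels at 14 of 167 (8.38%) and neuronal adhesion genes at 4 of 84 (4.76%), against 8.84% of all genes. With the 5' ends of all transcripts in place of those of genes, the adhesion genes had 10. Drd3, for the dopamine D3 receptor, was bound in every tissue, with 19.3 and 16.9 in thymocytes, 18.2 and 21.5 in brain and 8.38 and 9.79 in skin. Htr3b, for a serotonin receptor subunit, was too, with 10.2 and 13.3, 10.6 and 10.6, and 8.17 and 6.62. Grm5, for a metabotropic glutamate receptor, had 9.39 and 8.04 in brain and 4.57 in the first thymocyte list. The calcium channel gene Cacna1d (6.90 and 9.06) and the protocadherin gene Pcdhb10 (7.87 and 7.85) were bound in brain, Scn4a, a sodium channel gene of muscle, in brain (7.67 and 7.51) and thymocytes (6.35 and 5.20), and Pcdhb3 in brain (4.79 and 6.85) and the first thymocyte list (5.33).

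Thymocyte genes had start-site BURs at 6 of 49 (12.2%, against 8.84% of all genes). They were Cd28, Ctla4, Themis, Ccr7, Il2ra and Lck, which act in T cell signalling, migration and selection. Their median in vitro enrichment was 12.9, against 6.20 over all start-site BURs, with 19.4 at Il2ra. The only urea SATB1 peak was at Ctla4 in the second thymocyte list (4.68), where 14.2% and 13.5% of all start-site BURs had a thymocyte urea peak. Standard SATB1 was on Lck in both lists (7.35 and 9.70), 803 bp upstream, and on Ccr7 in the first (10.1). Among 40 Hox genes of body patterning, 3 had one (7.5%, against 8.84% of all genes). Hoxc6 was bound in all 6 urea lists (11.8 and 9.36, 9.01 and 10.2, 4.61 and 5.12), Hoxb5 in thymocytes (14.7 and 15.6) and brain (17.7 and 20.0), and Hoxd10 in the first brain list (5.37).

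Other families had shares from 2.99% (replication-dependent histones, 2 of 67 genes) to 17.1% (cytochrome P450 and UDP glucuronosyltransferase genes, 20 of 117). Between them lay serpins (9 of 60, 15.0%), interferon, interleukin and chemokine genes with their receptors (21 of 141, 14.9%), defensins (5 of 53, 9.43%), ribosomal and proteasome subunits (19 of 269, 7.06%), Zfp genes (24 of 374, 6.42%) and mitochondrial respiratory chain subunits (4 of 94, 4.26%). The interferon and cytokine group had a median in vitro enrichment of 10.9, and 9 and 8 of its 25 regions were occupied in brain (36% and 32%, against 35.1% and 31.8% of all start-site BURs). Each thymocyte urea list held 1 of them (4%, against 14.2% and 13.5%) and the skin lists 0 (against 4.21% and 4.44%).

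A few start-site BURs lay in sequence present in many copies. All 11 lists had a peak over 57 regions of 15798 bp in all, which held 53 BURs, 12 of them at gene starts. Of these 12, 9 were at predicted genes within chr9:2999945-3038302 and 2 at Gm10801 and Gm10800 on chromosome 2, all with gene models that begin at their first coding base, and 1 was upstream of 4632415K11Rik. At Gm10800 the fold enrichment was 20.1 and 19.8 in thymocytes, 12.7 and 13.1 in brain, 13.1 and 12.9 in skin, 15.1 and 14.6 for standard SATB1 and 26.8 and 14 for CTCF. A further 4 regions, at Gm10222 and Gm10925 on chromosome 1, shared over 20% of their 30-base words with the mitochondrial genome.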

How the data were processed

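The authors mapped reads with Bowtie2 2.3.1 to mm9 and called peaks for each library by MACS2 2.2.7 (q-value limit 0.01). Each deposited list gives a position, a score that was not used, the authors' fold enrichment (ratio of summit to local background), the deposited -log10 p-value and -log10 q-value, and the summit. Values are not scaled between samples, and the lists hold no read totals, which the study calls similar among urea libraries. Scripts (Python 3.11.15, pandas 2.3.3, numpy 2.4.6, pysam 0.24.0) kept chromosomes 1-19 and X, assigned BURs to GENCODE vM1 5' ends, and called a BUR occupied at 1 shared bp. Overlap and permutation code was tested on simulated data. The list was the unit of replication. Tests were exact two-sided permutation tests, adjusted by the Benjamini-Hochberg method over 7 tests, with a threshold of 0.05. Regions were not treated as replicates. Replicate numbers follow the labels, and they did not pair lists across tissues (correlations of replicate differences over the 2138 regions from -0.07 to 0.02).

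Named regions were the 8 strongest bound in all 6 urea SATB1 lists, the 4 strongest of each other pattern (thymocytes and brain, brain, thymocytes, skin, no list, standard SATB1, CTCF, in vitro) and at most 4 bound regions of each thymocyte, neuronal or epidermal list. All regions of the thymocyte and Hox lists were also named, and Gm10800, Cyp2w1's repeat and Mmrn1 were chosen after their values were seen. Regions, gene lists and rules were chosen with earlier results of these data known. Chromosome Y, other sequences, Satb1 knockout samples, inputs and other assays were not used here. Alternatives changed the overlap, q-value, distance limit, comparison group, weighting, peak number and lists used.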

Additional observations from a re-analysis of the deposited data

Results flagged for a closer look

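The near-to-far ratio differed between the 6 urea SATB1 lists and the 4 standard SATB1 and CTCF lists by -2.74 on the log2 scale, in an exact permutation test of the difference between the 2 sets of lists. The second standard list, made with the antibody of the urea SATB1 lists, was at 3.00, and the CTCF lists, made by the urea method, were at 2.68 and 2.15, against -0.11 to 0.29 for urea SATB1.

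Both brain lists were lower and both skin lists higher on start-site BURs than on BURs farther away, a gap in the log2 ratio of 0.33. This gap between 2 tissues was not tested by itself. It was 0.16 without regions common to all lists, where the first skin list was no longer higher (-0.01), 0.16 with equal numbers of strongest peaks and 0.12 with weights for AT content.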

How the results depend on the processing

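The lower ratio of urea SATB1 than of standard SATB1 and CTCF lists kept its sign and p under 20 alternatives (log2 difference -3.42 to -1.66). With each list left out the difference kept its sign (-2.96 to -2.56), with exact permutation p-values from 0.00794 to 0.0119. The ratio of standard SATB1 and CTCF lists stayed above 0 (1.79 to 3.61, and 2.61 to 3.01 with a list left out). The near-to-far value of urea SATB1, 0.05, reached p = 0.03125 in the exact permutation test with equal numbers of strongest peaks (0.18), with BURs 1 to 10 kb away as the comparison (0.14) and without tandem repeats (0.18). It turned to -0.0153 with whole BURs within 1 kb, -0.0315 when weighted by in vitro -log10 q, -0.0326 without regions common to all lists and -0.00525 without receptor families, and was 0.0033 to 0.08 with a list left out. The skin-minus-brain difference turned to -0.0796 with BURs 1 to 10 kb away and to -0.0821 within the same 1 Mb windows, was 0.16 without regions common to all lists, 0.16 with equal numbers of peaks and 0.12 with weights for AT content, and was 0.28 to 0.39 with a list left out. With the replicate number as a block it stayed 0.33, with an exact permutation p of 0.167, on the same side of 0.05 as without the block.

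The upstream and covering values failed the correction in the main setting, so only their unadjusted exact permutation p is followed here. For the upstream value it rose above 0.05 without receptor families (-0.32), without models that begin at a coding base (-0.0769) and as a mean per tissue (-0.44, 3 values). It also did so with any list left out (-0.50 to -0.37), where 5 lists cannot reach 0.05. For the covering value it rose above 0.05 without such models (0.45), weighted by length (0.76), as a mean per tissue (0.97) and with any list left out (0.73 to 1.13). The fold enrichment value had an unadjusted exact permutation p of 0.03125 with equal numbers of strongest peaks (-0.16). It turned to 0.0036 with whole BURs and 0.0680 without models that begin at a coding base, and was -0.09 to -0.01 with a list left out. Of the counts by pattern, those bound in both standard SATB1 lists (74) became 36 with the summit inside the BUR, 18 with 50% of the BUR covered, 42 with equal numbers of peaks and 29 without repeats, and those in both CTCF lists (26) became 16 with the summit and 7 with 50% covered. With equal numbers of peaks, all 6 urea lists held 34 (70 otherwise), thymocytes and brain 10 (151), brain alone 27 (306) and skin without brain 38 (8). Of 46 named regions, 9 changed their number of lists with the summit rule, 16 with 50% covered and 24 with equal numbers of peaks. Other changes of these counts by over 1.5 times followed from using fewer or more regions. The causes were not tested. Tandem repeats, mitochondrial copies, coding-base models and quintile weights were chosen after seeing the data. No input or knockout list bears on any peak here.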

Other observations

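The genes with the most start-site BURs, 3 each, were Mmrn1, Olfr1053, Olfr945 and Olfr951. BURs that cover the 5' end of a gene outside the receptor families (65 regions, 6 of them common to all lists) carried standard SATB1 at 33.8% and 26.2% and thymocyte CTCF at 13.8%, whereas the 61 that cover a receptor gene's 5' end carried neither. The same 61 regions were occupied by urea SATB1 at 49.2% and 39.3% in brain.

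Replicate lists shared more start-site BURs than distant ones for standard SATB1. The 74 regions in both lists were 57.4% of those in the first and 88.1% of those in the second, against 36.1% and 44.1% farther away. For urea SATB1 in brain the shares were 84.7% and 93.4% near and 84.4% and 91.6% far.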
